A study of Mus musculus with 12 samples.

Results

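Malat1, Neat1, Kcnq1ot1, Snhg1 and Gas5 are long noncoding RNAs, taken here by their symbols from the deposited table of normalised counts. They were 5 of its 54227 gene rows. The libraries came from dissociated livers of C57Bl/6 mice carrying the Sox9EGFP transgene, fasted for 16 h, and the series compares 3 EGFP+ populations with EGFP- cells. Cells were sorted by EGFP fluorescence into negative (neg), sublow (sub), low and high gates, with 12000 cells per library and 3 libraries per gate. All 12 libraries share the transgene, the strain and the fast, and the labels give neither the animals' age nor the promoter that drives EGFP. RNA was converted to stranded total RNA libraries, a method that does not select polyadenylated RNA. The labels number the libraries of each gate 1 to 3 without saying that they came from separate mice, so the p-values concern these samples only. Those of limma also draw on the spread of other genes, through a trend of variance with level.

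Sox9 marks the cells lining the bile ducts, and reporters of it grade liver cells from ductal to other types. Malat1 is a nuclear RNA of the speckles, where splicing factors gather. Neat1, its neighbour on the chromosome, is the architectural RNA of the paraspeckle, a nuclear body whose long Neat1 isoform holds its core proteins together. Kcnq1ot1 is a nuclear RNA read antisense from within the Kcnq1 gene on the paternal chromosome, and silences neighbouring genes of that imprinted domain in cis. Snhg1 and Gas5 are hosts of small nucleolar RNAs (snoRNAs): their introns release snoRNAs that guide chemical modification of ribosomal RNA, while the spliced host RNA is exported, translated briefly and destroyed by nonsense-mediated decay.

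Malat1 and the long Neat1 RNA have no poly(A) tail of the usual kind at their 3′ ends. In both, U-rich stretches pair with a genomically encoded A-rich tract in a triple helix that protects the end. The 100 bases that end with the A tract AAAAAGCAAAA are shown for each, because this end is what both RNAs are known for. Capitals mark that tract and the U-rich letters TTTTGCTTTT or TTTTTCTTTT, searched on the transcript strand of the GENCODE M21 transcripts on GRCm38. The Malat1 stretch lies at chr19:5795982-5796081 on the minus strand and the Neat1 stretch at chr19:5824708-5824807 on the same strand.
Malat1: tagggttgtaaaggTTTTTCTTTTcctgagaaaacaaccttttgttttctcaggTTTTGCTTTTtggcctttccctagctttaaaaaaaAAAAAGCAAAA
Neat1: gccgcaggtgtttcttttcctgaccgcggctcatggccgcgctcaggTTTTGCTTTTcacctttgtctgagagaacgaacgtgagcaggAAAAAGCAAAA
The search strings matched 2 U-rich stretches in the Malat1 window and 1 in the Neat1 window. The Neat1 A tract was the last 11 bases of its 20771 nt transcript, and the Malat1 tract was followed by another 292 nt of annotated RNA. Of 68537 annotated transcripts of at least 1000 nt, 4, from 3 genes, held the A tract with either U-rich string in the 100 bases ending there, which is 0.00584%. The strings were chosen because these RNAs are known for them, so the count describes their rarity only.

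The recovered depth was 8775387 to 15535588 reads per library and 9039 to 12687 genes were above 0. The summed biliary markers (Sox9, Epcam, Krt19, Spp1 and 6 others) ranged from 22.2 to 414 normalised counts in neg, 24033 to 43866 in sub, 84930 to 108171 in low and 76120 to 80973 in high, and 5 of the 10, among them Epcam and Spp1, were at 0 in every neg library. The summed endothelial markers (Pecam1, Cdh5, Kdr, Stab2 and 6 others) went the other way, from 146907 to 208731 in neg and 40637 to 52945 in sub to 1008 to 2699 in low and 631 to 1520 in high. Stellate and mesenchymal markers summed to 23628 to 42636 in neg and 28372 to 41003 in sub, against 320 to 1999 in low and 397 to 1755 in high. Hepatocyte markers summed to 395 to 793 in neg, 4968 to 8109 in sub, 14729 to 22230 in low and 18578 to 22577 in high. Macrophage markers summed to at most 1348 and lymphocyte markers to at most 1108 in any library, with Cd3e at 0 in all 12. Marker levels thus differed strongly between gates, and their part in the differences below was not tested.

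The 5 RNAs spanned over 3 orders of level. Malat1 had the highest mean of all rows, 776858 normalised counts over 12 libraries, and Neat1 ranked 7 with 75118. Kcnq1ot1 ranked 296 (4280), Gas5 2969 (685) and Snhg1 4791 (386). Between genes the levels were compared per kb of the longest annotated transcript, which is 6983 nt for Malat1, 20771 for Neat1, 93092 for Kcnq1ot1, 2728 for Snhg1 and 2556 for Gas5. On that scale the means were 111298 for Malat1, 3617 for Neat1, 268 for Gas5, 141 for Snhg1 and 46.0 for Kcnq1ot1 normalised counts per kb, so the order of the lower 3 changed with length. A row pools the transcripts of its gene, 4 annotated for Neat1, so the long Neat1 isoform is not seen apart. Where shorter transcripts give most of the reads, the level per kb comes out too low. Malat1 and Neat1 together took 5.74 to 8.67% of a column total.

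**Figure D1:**
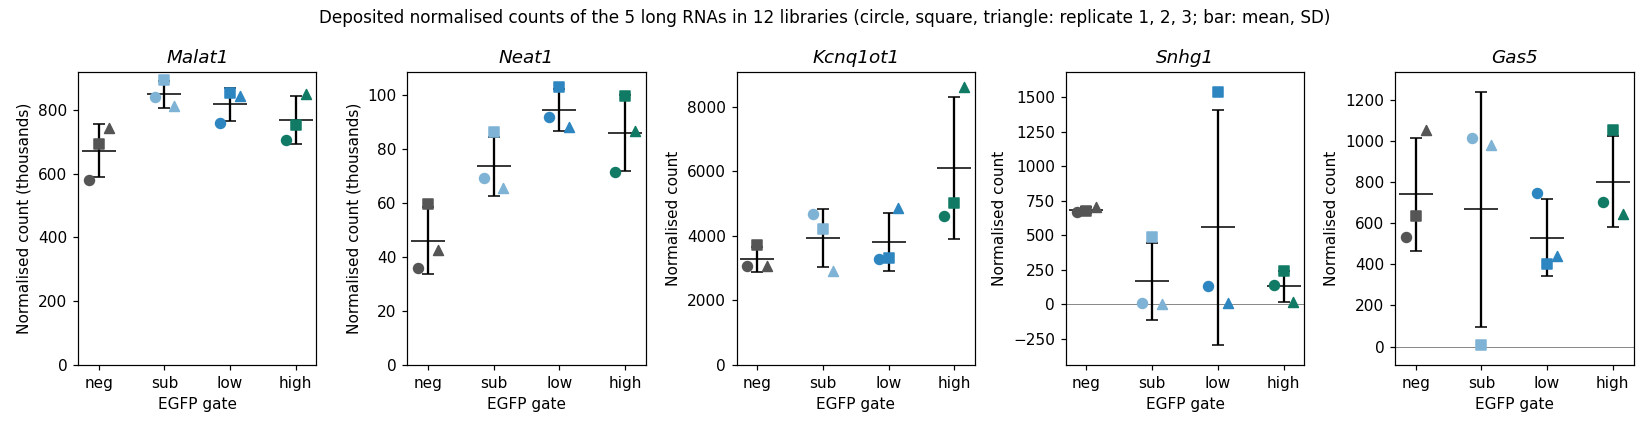
Normalised counts (vertical axes, divided by 1000 for Malat1 and Neat1) of the 5 RNAs by EGFP gate, with circle, square and triangle for replicate 1, 2 and 3, the long bar for the mean and the whisker for the SD of 3 libraries. Neat1 lies at 35819 to 59822 in neg and at 65727 or more in every other library, whereas Snhg1 spreads from 0 to 1535 within the EGFP+ gates.

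In the test across the gates, Malat1 and Neat1 were called and Kcnq1ot1, Snhg1 and Gas5 were not. The test was limma's moderated F over 4 gates on log2(normalised count + 1), adjusted by Benjamini-Hochberg over the 16128 genes with a mean of at least 10, and all 5 RNAs passed that filter. It called 2 of the 5, beside 4.23% of all genes tested. Against neg, 2 of the 5 rose in sub, 2 in the low gate and 1 in high, beside 1.04%, 2.55% and 2.44% of genes that rose. Between EGFP+ gates limma called 0 of the 5, beside 0.744% of genes for low against sub, 0.986% for high against sub and 0% for high against low. There 1, 1 and 0 of the 5 had an unadjusted p under 0.05, beside 10.2%, 10.2% and 4.24% of all genes in the same order. edgeR called 0 of the 5, beside 1.68%, 1.67% and 0.459%, and DESeq2 0, beside 9.29%, 9.34% and 4.2%. Fold changes below are on this log2 scale, with the SE of the fit.

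Neat1 was the member that differed most clearly between gates. Its normalised counts were 35819, 59822 and 42746 in neg, 69415, 86261 and 65727 in sub, 92006, 103208 and 88223 in the low gate, and 71540, 99812 and 86843 in high. All 9 EGFP+ libraries stood above all 3 neg libraries, which held for 2.06% of genes tested, and low stood above sub without overlap while high overlapped both. The means were 46129 ± 12354 (SD, n = 3) in neg, 73801 ± 10947 in sub, 94479 ± 7792 in the low gate and 86065 ± 14152 in high. Against neg, Neat1 rose by 0.70 ± 0.14 in sub (adjusted p = 0.0109), 1.06 ± 0.14 in low (adjusted p = 7.36e-05) and 0.92 ± 0.14 in high (adjusted p = 0.000332), and the F test had an adjusted p of 0.00023. These are ratios of means of 1.6, 2.05 and 1.87. The 3 contrasts share the neg libraries.

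Among the EGFP+ gates the neighbouring levels of Neat1 were closer. Low exceeded sub by 0.36 ± 0.14 (adjusted p = 0.332), with the libraries apart as they were, in that direction, for 5.75% of genes. High differed from low by -0.15 ± 0.14 (adjusted p = 1) and from sub by 0.22 ± 0.14 (adjusted p = 0.653). A limma fit with the library number as a block gave low against sub an adjusted p of 0.0266. The labels do not say that equal numbers pair the libraries. The descending order was low, high, sub and neg, and in the main fit, which takes the libraries as unpaired, only the step from sub to neg passed the test. Under quantile normalisation the signs among EGFP+ gates turned, to -0.25 for low against sub, 0.12 for high against low and -0.12 for high against sub.

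As a share of the column total, which does not use the authors' size factors, Neat1 made up 0.433 ± 0.114% in neg, 0.66 ± 0.0901% in sub, 0.84 ± 0.0647% in the low gate and 0.778 ± 0.12% in high (SD, n = 3). The exact permutation test over the 12 libraries gave p = 0.00416, two-sided in that any difference among gates counts. The calls of Neat1 against neg in low and high held without each library in turn. The call in sub was lost without neg replicate 1 (log2 fold change 0.54, adjusted p = 0.083), neg replicate 3 (0.66, 0.079), sub replicate 1 (0.74, 0.0599) or sub replicate 2 (0.58, 0.119). All 3 calls were lost without limma's variance trend, in fits of 2 gates alone, under quantile normalisation and with DESeq2.

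Malat1 changed less. Its normalised counts were 580042, 693361 and 742716 in neg, 839996, 893865 and 812180 in sub, 758317, 851574 and 843819 in the low gate, and 704970, 750805 and 850651 in high. Every sub and every low library was above every neg library, which held for 4.69% and 8.38% of genes tested, whereas high overlapped neg through its replicate 1. Across all libraries the highest value was 1.54 times the lowest. Malat1 rose by 0.34 ± 0.07 in sub (adjusted p = 0.0117) and by 0.29 ± 0.07 in low (adjusted p = 0.0179) against neg, which is 1.27-fold and 1.22-fold. In high the difference was 0.20 ± 0.07 (adjusted p = 0.119, libraries taken as unpaired), and the F test had an adjusted p of 0.0169. With the library number as a block in limma, high against neg had an adjusted p of 0.0124.

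The EGFP+ gates did not separate from each other in Malat1. The estimates were -0.05 for low against sub, -0.15 for high against sub and -0.09 for high against low, each with an SE of 0.07, and the adjusted p-values were 0.818, 0.476 and 1. Sub had the highest mean (848680 ± 41529, n = 3), followed by low (817904 ± 51749), high (768809 ± 74490) and neg (672040 ± 83407).

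The call of Malat1 depended on the scale. It made up 6.31 ± 0.845% of the column total in neg, 7.59 ± 0.276% in sub, 7.26 ± 0.278% in the low gate and 6.95 ± 0.51% in high (SD, n = 3), and the exact permutation test on those percentages gave p = 0.0653. With mitochondrial genes, Rn45s and Lars2 taken out of the total, the percentages were 6.54 ± 0.857, 8.13 ± 0.32, 7.83 ± 0.27 and 7.49 ± 0.505 and the exact p was 0.0253. The mitochondrial ribosomal RNAs moved with the gates too, from 2.47 ± 0.346% in neg to 5.25 ± 0.268% in sub, 5.65 ± 0.339% in the low gate and 5.68 ± 0.447% in high, and their part in the Malat1 result beyond that change of total was not tested. The sub call was lost without neg replicate 1 (log2 fold change 0.24, adjusted p = 0.0704), sub replicate 1 (0.35, 0.0815) or sub replicate 2 (0.31, 0.119), and the low call without neg replicate 1 (0.19, 0.114), neg replicate 2 (0.32, 0.0552), low replicate 2 (0.26, 0.12) or low replicate 3 (0.27, 0.116). Both calls were lost without the filter on low values, without limma's variance trend, in fits of 2 gates alone, under quantile normalisation and with DESeq2, and the low call at equal column totals. In a bulk library, fewer cells with a given RNA and less of it per cell cannot be told apart.

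**Figure D2:**
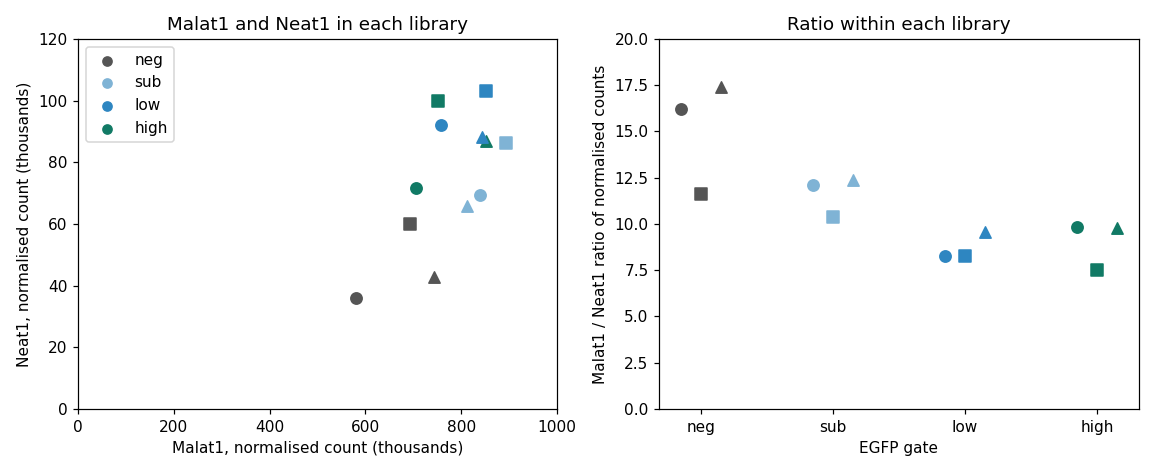
Left, Neat1 against Malat1 in normalised counts divided by 1000, 1 point per library, coloured by gate and shaped by replicate (circle 1, square 2, triangle 3). Right, the ratio of Malat1 to Neat1 within each library by gate, which falls from 11.6 to 17.4 in neg to 7.52 to 9.85 in low and high.

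A ratio within a library needs no scaling between libraries, and the ratio of Malat1 to Neat1 differed between gates. It was 16.2, 11.6 and 17.4 in neg, 12.1, 10.4 and 12.4 in sub, 8.24, 8.25 and 9.56 in the low gate, and 9.85, 7.52 and 9.8 in high. Every low and high library was below every sub and neg library, and neg and sub overlapped through neg replicate 2. On the log2 scale the means were 3.89 ± 0.31, 3.53 ± 0.14, 3.12 ± 0.12 and 3.17 ± 0.22 (SD, n = 3), with an exact permutation p of 0.00604. The p stayed between 0.00117 and 0.0205 over 14 alternatives, leaving out each library among them. Across the 12 libraries, which share the gates, log2 Malat1 and log2 Neat1 had a Pearson r of 0.72 and a Spearman rho of 0.6. The genes lie 22035 bp apart in the same orientation, Malat1 at chr19:5795690-5802672 and Neat1 at chr19:5824708-5845478, both on the minus strand. A gene model on the other strand inside Malat1, Gm37376, had at most 299.4 normalised counts in any library.

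Transcripts that encode proteins of the bodies holding these RNAs were measured as well. In this list and those below, a protein's name stands for its transcript, and protein itself was not measured. Of 15 paraspeckle proteins tested, limma's F called 0, with 4 at an unadjusted p under 0.05, 0 by edgeR and 0 by DESeq2. Over all genes tested the shares were 4.23% called by limma, 14.9% at an unadjusted p under 0.05, 4.46% called by edgeR and 5.32% by DESeq2, so that a count of 0 in a list of this size is near the background. Sfpq, a core paraspeckle protein, had the highest mean of them, at 9159 ± 1574 in neg, 13179 ± 3532 in sub, 14011 ± 2474 in the low gate and 13829 ± 3049 in high (F adjusted p = 0.299). In low against neg the estimate was above 0 for 13 of the 15 and for 7683 of all 16128 genes tested, with medians of 0.61 and 0. Some of the 13 had neg libraries at or near 0, such as Cpsf6 (0, 0 and 783.3) and Nudt21 (0.7, 46.5 and 6.8). A shift of the list as a whole was not tested.

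Of the transcripts of 15 nuclear speckle proteins, limma called 2 in the F test, beside 4.23% of all genes tested. They were Rbm39 and Rbm25, both of which take part in splicing, and edgeR and DESeq2 called 0 in their tests over the gates. Rbm39 rose against neg by 1.16 ± 0.28 in low (adjusted p = 0.0181) and 1.08 ± 0.28 in high (adjusted p = 0.0286), from 5385 ± 1476 in neg to 11872 ± 2141 in low. Rbm25 rose from sub to low by 0.94 ± 0.21 (adjusted p = 0.0397), from 7678 ± 1830 to 14491 ± 1132. Son and Srrm2, the scaffold proteins of the speckle, had the highest means, with F adjusted p-values of 0.735 and 0.738. Their gate means ran from 11971 to 15250 for Son and from 13144 to 15484 for Srrm2.

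Of 16 long noncoding RNAs tested outside the snoRNA hosts, a list that includes Malat1 and Neat1, 4 passed the F test, beside 4.23% of all genes. Rpph1, the RNA of ribonuclease P, rose against neg by 0.37 ± 0.06 in low (adjusted p = 0.00125) and 0.44 ± 0.06 in high (adjusted p = 0.000197), while its estimate in sub was 0.05 ± 0.06 (adjusted p = 0.802). Its means were 102101 ± 12358 in neg, 105537 ± 7291 in sub, 131855 ± 6882 in the low gate and 138285 ± 6357 in high. The other was Meg3, an imprinted RNA named here after its values were seen: it had 1302 ± 1414 in neg and 1217 ± 619 in sub, was listed at 0 in all 3 high libraries and passed the F test with an adjusted p of 0.0222.

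Kcnq1ot1 was highest in the high gate, without passing the test. It lies at chr7:143203458-143296549 on the minus strand, annotated as a single unspliced antisense transcript inside Kcnq1. Its normalised counts were 3056, 3725 and 3058 in neg, 4673, 4208 and 2926 in sub, 3274, 3309 and 4853 in the low gate, and 4632, 5022 and 8630 in high. Every high library was above every neg library, as for 10.2% of genes tested, and sub and low overlapped every other gate. High replicate 3 was the highest of all 12. The estimate for high against neg was 0.84 ± 0.36 (adjusted p = 0.236), a ratio of means of 1.86, and the F test had an adjusted p of 0.529.

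The remaining estimates for Kcnq1ot1 were 0.24 for sub and 0.20 for low against neg, -0.04 for low against sub, 0.60 for high against sub and 0.64 for high against low, each with an SE of 0.36 and adjusted p-values of 0.611 to 1. As a percentage of the column total it was 0.0308 ± 0.00343 in neg, 0.0351 ± 0.00768 in sub, 0.0338 ± 0.00758 in the low gate and 0.0549 ± 0.0186 in high (SD, n = 3), with an exact permutation p of 0.0373. Leaving out single libraries gave a p of 0.0158 to 0.211, the last without high replicate 3, and a replicate block gave 0.0885. This p stayed under 0.05 in only 4 of 14 alternatives.

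Kcnq1, the potassium channel gene around it, is on the opposite strand, and whether the counting used strand is not given in the sources used here. Its normalised counts were 491.9, 0 and 8.7 in neg, 5.2, 1466.6 and 873.8 in sub, 997.5, 496.2 and 934.5 in the low gate, and 680.1, 244.6 and 843.7 in high. As counts, not divided by transcript length, they were below those of Kcnq1ot1 in every library. Low was above neg without overlap, as for 8.38% of genes tested, the other gates overlapped, and the F test had an adjusted p of 0.45, so Kcnq1ot1 stays uncertain as far as reads of the 2 genes could be exchanged. Of 9 genes of the imprinted domain tested, Kcnq1ot1 included, limma's F called 0, with 1 at an unadjusted p under 0.05, 0 by edgeR and 1 by DESeq2, beside 4.23%, 14.9%, 4.46% and 5.32% of all genes. Cd81, a tetraspanin of the cell surface, had the highest mean of the domain after Kcnq1ot1 and ranged from 0 to 1476.1 (F adjusted p = 0.735).

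**Figure D3:**
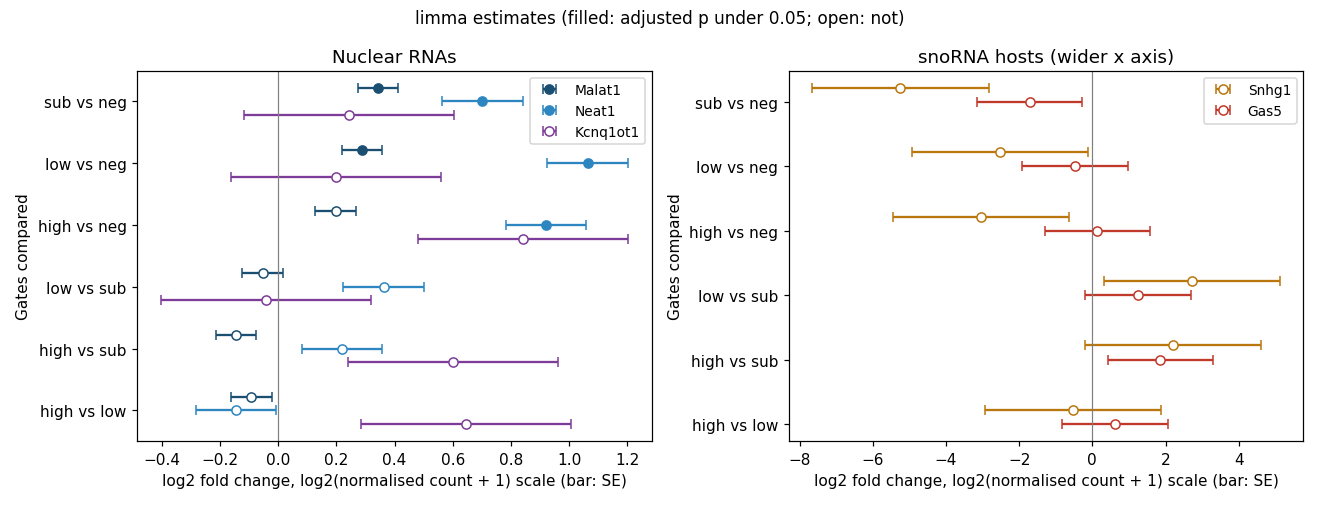
log2 fold changes from limma (horizontal axis, bar: SE) for the 6 pairs of gates (vertical axis), with filled points for adjusted p under 0.05 and open points for the others; the right panel has a wider axis. Only Malat1 and Neat1 have filled points, and the SE is 2.41 for Snhg1 and 1.44 for Gas5, against 0.07 to 0.36 for the other 3.

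Snhg1 was even in neg and uneven elsewhere. It lies at chr19:8723475-8726443 on the plus strand with 18 annotated transcripts. Its normalised counts were 670.2, 675.1 and 707.9 in neg, 11.1, 491.2 and 0 in sub, 131.4, 1535.3 and 7.4 in the low gate, and 141.9, 240.5 and 15.5 in high. All sub and all high libraries were below all neg libraries, which held for 4.99% and 8.61% of genes tested, whereas low overlapped neg through its replicate 2, the highest of the 12. In sub replicate 3, where it was listed at 0, a value of 2.99 would correspond to 3 reads.

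No contrast of Snhg1 passed the test. The estimate for sub against neg was -5.24 ± 2.41 (adjusted p = 0.496), for high against neg -3.05 ± 2.41 (adjusted p = 0.569) and for low against neg -2.52 ± 2.41 (adjusted p = 0.647). Single libraries moved these sizes: the sub estimate was -7.62 without sub replicate 2 and -3.15 without sub replicate 3, and the low estimate -4.36 without low replicate 2 and -0.60 without low replicate 3. Without high replicate 3 the high estimate was -1.88. On 10 libraries edgeR gave -1.44 for sub and -0.24 for low against neg. The means were 684 ± 20.5 (SD, n = 3) in neg, 167 ± 280 in sub, 558 ± 849 in the low gate and 133 ± 113 in high. The exact permutation p on its percentage of the column total was 0.316, and 0.0209 without low replicate 2. Between EGFP+ gates the estimates were 2.72 for low against sub (adjusted p = 0.737), 2.20 for high against sub (adjusted p = 0.765) and -0.53 for high against low (adjusted p = 1), each with an SE of 2.41. The estimate for low against sub stayed above 0 in all 24 alternatives (0.63 to 5.11), whereas the signs of both estimates for high were not stable. High against low became 1.31 without low replicate 2 and 0.64 without high replicate 3, and high against sub turned negative on the 10 libraries of the count tests, in the direction of its ratio of means, 0.792.

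The snoRNA genes inside Snhg1 bear on this, because 1 of them has a row with counts. Of the 8 annotated snoRNAs, the 7 of 65 to 76 nt were at 0 in all 12 libraries, and Snord22, of 126 nt, was above 0 in all 12. Snord22 lies at chr19:8725866-8725991 on the plus strand and its full sequence is part of 3 of the 18 annotated Snhg1 transcripts, so its reads and those of Snhg1 cannot be told apart there. It is shown beside its neighbour Gm23246 (chr19:8725594-8725660, plus strand), at 0 throughout, to set the long snoRNA against a short one. Capitals mark the D box letters CTGA within the last 20 bases and, where present within the first 20, the C box letters TGATGA, read on the transcript strand of GENCODE M21.
Snord22: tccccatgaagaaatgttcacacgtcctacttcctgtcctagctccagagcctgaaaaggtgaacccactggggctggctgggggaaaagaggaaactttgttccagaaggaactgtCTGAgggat
Gm23246: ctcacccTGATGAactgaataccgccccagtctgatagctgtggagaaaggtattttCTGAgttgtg
The D box letters were found in all 8 snoRNAs of Snhg1 and the C box letters in 6, Snord22 not among them.

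**Figure D4:**
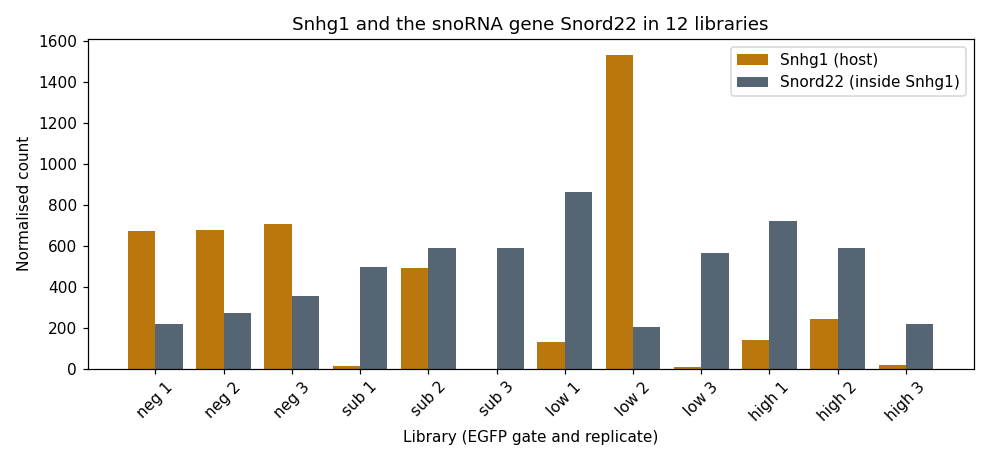
Normalised counts (vertical axis) of Snhg1 and of Snord22, the snoRNA gene inside it, as paired bars for the 12 libraries (horizontal axis). Snhg1 exceeds Snord22 in the 3 neg libraries and in low replicate 2, and is below it in the other 8.

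Snord22 had 215.6, 272.7 and 356.4 normalised counts in neg, 497.4, 590.8 and 587.5 in sub, 861.6, 205.6 and 567.1 in the low gate, and 720.8, 587.2 and 219.7 in high. Sub was above neg without overlap, as for 4.69% of genes tested, and low and high overlapped neg. The estimate for sub against neg was 1.01 ± 1.14 (adjusted p = 0.779) and the F test had an adjusted p of 0.899. The sum of Snhg1 and Snord22 was 966 ± 90.7 (SD, n = 3) in neg, 726 ± 311 in sub, 1103 ± 591 in the low gate and 642 ± 353 in high, with high below neg without overlap (8.61% of genes tested) and sub and low overlapping it. The sum itself was not tested.

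Gas5 showed no difference between gates beyond its spread. It lies at chr1:161034422-161038539 on the plus strand, with 25 annotated transcripts, and its first bases overlap Zbtb37 on the opposite strand. Its normalised counts were 533.4, 637.2 and 1053.7 in neg, 1014.8, 9.2 and 979.5 in sub, 747.3, 402.7 and 442.2 in the low gate, and 705.2, 1054.1 and 644.4 in high. Every pair of gates overlapped, and sub replicate 2 stood far below the other 11. The means were 741 ± 275 (SD, n = 3), 668 ± 571, 531 ± 189 and 801 ± 221 in the order neg, sub, low and high.

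The estimates for Gas5 against neg were -1.72 in sub, -0.48 in the low gate and 0.14 in high, each with an SE of 1.44 and adjusted p-values of 0.724, 0.958 and 1, and the F test had an adjusted p of 0.753. The sub estimate was 0.49 without sub replicate 2. Between EGFP+ gates the estimates were 1.24 for low against sub, 1.86 for high against sub and 0.61 for high against low, with adjusted p-values of 0.792, 0.688 and 1. Without sub replicate 2 those for low and high against sub turned to -0.96 and -0.35, and the ratio of means of low to sub was 0.795. The exact permutation p on the percentage of the column total was 0.774. Of the 9 snoRNAs annotated inside Gas5, 8 had a row, 6 of them at 0 in all libraries. The other two, Gm22357 and Snord80, reached at most 26.3 and 39.2 normalised counts, each in 3 libraries.

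Snhg1 and Gas5 did not follow each other. The ratio of Gas5 to Snhg1 was 0.796, 0.944 and 1.49 in neg, 84.3, 0.0206 and 981 in sub, 5.65, 0.263 and 52.8 in the low gate, and 4.94, 4.37 and 39.1 in high, from values with 1 added. High stood above neg without overlap, and sub and low ran from far below to far above it. The exact permutation p over the gates was 0.779. Across the 12 libraries the Pearson r of their log2 values was -0.27 and the Spearman rho -0.23.

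Many snoRNA hosts, Gas5 among them, are known for transcripts that begin with a run of pyrimidines, the 5′ TOP motif of genes whose translation follows growth signals. The windows show 30 bases before and 30 from the RefSeq start on GRCm38.p6, with capitals for the longest unbroken run of C and T touching the stretch from 5 bases before to 15 after the start, on the transcript strand. RefSeq windows were matched for 4 of the 5 RNAs. The Gas5 window is chr1:161035136-161035195 and the Snhg1 window chr19:8723457-8723516, both on the plus strand.
Gas5: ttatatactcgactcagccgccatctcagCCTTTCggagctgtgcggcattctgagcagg
Snhg1: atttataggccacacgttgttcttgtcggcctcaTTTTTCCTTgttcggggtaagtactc
The run was 6 bases in Gas5, from 1 base before the annotated start, and 9 in Snhg1, where it did not begin at the start but at base 5 of the transcript. Of 32851 RefSeq windows, 28.7% had a run of at least 6 and 9.04% of at least 9. A second RefSeq start of Gas5 had a run of 3, reached by 82.6% of windows, and the runs of Malat1 and Kcnq1ot1 were 4 bases each, reached by 63.4%.

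Calls among the snoRNA hosts were near the background share. Of 15 noncoding hosts tested, Snhg1 and Gas5 included, limma's F called 0 (4.23% of all genes), with 0 at an unadjusted p under 0.05 (14.9%), 0 by edgeR (4.46%) and 0 by DESeq2 (5.32%). Snhg14 and Gas5 had the highest means, and Snhg14, a long host near the Prader-Willi locus, was at 877 ± 553 in neg, 1003 ± 377 in sub, 529 ± 444 in the low gate and 511 ± 501 in high (F adjusted p = 0.735). Of 25 protein-coding hosts, limma's F called 1, a share near the 4.23% of all genes, edgeR 2 (4.46%) and DESeq2 1 (5.32%). The limma call was Ncl, which encodes nucleolin, a major protein of the nucleolus.

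Ncl had 22975.4, 22843.6 and 21364.7 normalised counts in neg, 37653.6, 34207.7 and 30037.5 in sub, 30302.8, 42296.3 and 38394.3 in the low gate, and 30129.6, 29655.8 and 33668 in high. All EGFP+ libraries were above all neg libraries, as for Neat1 and for 2.06% of genes tested. In limma, Ncl rose against neg by 0.60 ± 0.11 in sub (adjusted p = 0.00602), 0.71 ± 0.11 in low (adjusted p = 0.000519) and 0.47 ± 0.11 in high (adjusted p = 0.0159). For high against neg, edgeR called 0 of the 25 protein-coding hosts (3.96% of all genes) and DESeq2 0 (11.4%). DESeq2 also called 0 of them for low against neg (11.6%), so these calls of Ncl were lost there. Hspa8, a heat shock cognate chaperone and the other host with a mean among the highest 2, had gate means of 23382 to 27211 and an F adjusted p of 0.735.

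Factors of nonsense-mediated decay, which degrades the spliced host RNAs, gave 0 calls of 10 in limma's F test (4.23% of all genes), with 0 at an unadjusted p under 0.05 (14.9%), 0 by edgeR (4.46%) and 0 by DESeq2 (5.32%). Smg1, the kinase of the pathway, was at 4260 ± 1330 in neg, 4667 ± 804 in sub, 6392 ± 1844 in the low gate and 5752 ± 790 in high (F adjusted p = 0.671). Upf2, which joins the core factor Upf1 to the exon junction complex, was at 1602 ± 704, 2816 ± 1876, 3140 ± 429 and 4642 ± 1415 in the same order (F adjusted p = 0.432).

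**Figure D5:**
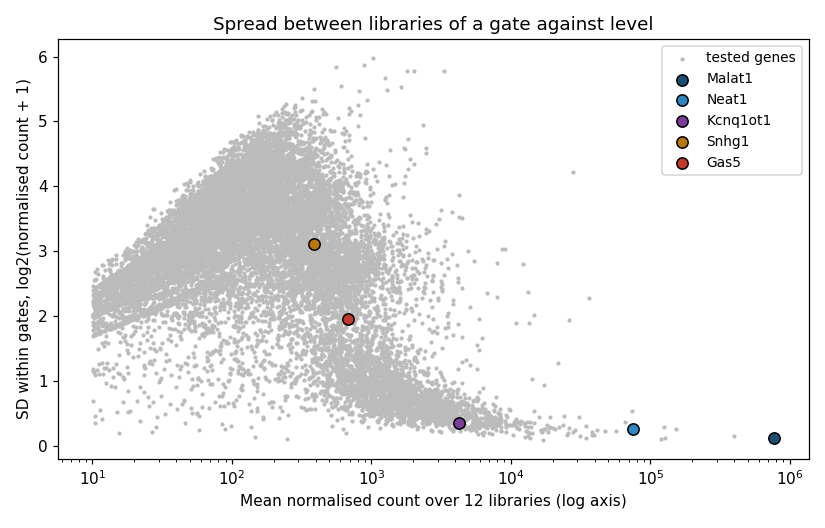
SD of log2(normalised count + 1) within gates (vertical axis) against mean normalised count over 12 libraries (horizontal log axis), with grey points for the genes tested and coloured points for the 5 RNAs. Malat1 (0.13), Neat1 (0.25) and Kcnq1ot1 (0.35) lie at the low end, and Gas5 (1.95) and Snhg1 (3.11) among genes that swing between libraries.

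The spread within gates set what could be seen for each RNA. The SD of log2(normalised count + 1) was 0.13 for Malat1, 0.25 for Neat1, 0.35 for Kcnq1ot1, 1.95 for Gas5 and 3.11 for Snhg1. For Kcnq1ot1, 744 genes with means within 2-fold of its own had a median SD of 0.56, for Gas5 3731 genes had 2.56 and for Snhg1 4533 genes had 3.12. For Neat1 only 12 genes were as near, with a median of 0.23, and 66.7% of them had a lower SD than Neat1. For Malat1 there were 2, with a median of 0.14. Limma's variance trend thus had few genes near the levels of Malat1 and Neat1. Of the genes near the level of Snhg1, 80.1% were at 0 in at least 1 library, so its library-to-library swings were those usual for its level in this table. A difference in Snhg1 or Gas5 of the size seen for Neat1 was not detectable here.

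The genes with the profile most like each member over the 12 libraries were found by Pearson r of log2(normalised count + 1) among 9613 genes, as a description. For Neat1 they were Ppl (0.944), Rtn4 (0.933) and Lmo7 (0.931), which kept 0.8, 0.77 and 0.81 without its 2 libraries farthest from the median. For Malat1 they were Ski (0.921), Gcnt2 (0.866) and Adgrg6 (0.853), with 0.87, 0.8 and 0.6 left. For Kcnq1ot1 they were Wnt4 (0.842), Hnf4g (0.819) and Tmem71 (0.818), with 0.85, 0.83 and 0.68 left. Snhg1 was most like Fam193b (0.96), Mtmr6 (0.953) and Commd1b (0.918), with 0.9, 0.89 and 0.91 left. Gas5 was most like Gm48082 (0.975), Tmx3 (0.974) and Upf3b (0.971), and those values rested on sub replicate 2 and low replicate 2, since 0.46, 0.63 and 0.37 were left without them.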

How the data were processed

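The authors deposited normalised counts per gene (signal: counts divided by a size factor) for 12 libraries; per the submitters' processing notes, Salmon, DESeq2 1.26.0 and mm10 were used, with no roles given. How strand and reads shared between genes were handled is not given in the sources used here. Every value was a whole multiple (tolerance 0.01) of the column's smallest, worth 0.691 to 1.22, and dividing by it gave 8775387 to 15535588 reads per library. For 2 columns, sub replicate 3 and high replicate 2, that step lay too near 1 to be told from a raw count, so edgeR 4.0.16 (quasi-likelihood) and DESeq2 1.42.0 were run as alternatives on the other 10.

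The main fit was limma 3.58.1 (R 4.3.3) with a variance trend on log2(value + 1), over 16128 genes with a mean of at least 10, gate as the only term and all 12 libraries in the fit, with Benjamini-Hochberg adjustment over all genes tested. Percentages of the column total and within-library ratios were compared by 7 exact permutation tests over 369600 assignments (smallest possible p 6.5e-05, unadjusted). Gene names were matched to GENCODE M21 and RefSeq tables. Genes other than the 5 were named by rule: in each list the 2 with the highest mean and up to 3 called with the lowest F p, and for each member the 3 with the highest r among genes with a mean of at least 100. 1 gene that the rule names is not reported here. The members and lists were chosen with earlier results of these data known. Alternatives were other pseudocounts, filters and scalings, a replicate block, no variance trend, fits of 2 gates and leaving out each library.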

Additional observations from a re-analysis of the deposited data

How the results depend on the processing

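The alternatives changed calls of Malat1 and Neat1, and causes were not tested except where a construction shows one. Quantile normalisation sets Malat1, first in every library, to 0.00 in all contrasts (F adjusted p = 1); Neat1 was then 0.41 in sub, 0.16 in low and 0.28 in high against neg (F adjusted p = 0.397), -0.25 for low against sub, 0.12 for high against low and -0.12 for high against sub, and Kcnq1ot1 0.05 for low against sub. Equal column totals gave Malat1 0.21 in low against neg (adjusted p = 0.0639) and an F adjusted p of 0.0535. With no filter on low values Malat1 kept 0.34 in sub and 0.29 in low and Neat1 0.70 in sub, but adjusted p rose to 0.14, 0.121 and 0.14, and the F of Malat1 to 0.172. Without the variance trend, and in fits of 2 gates, the estimates for Malat1 (0.34 in sub, 0.29 in low) and Neat1 (0.70, 1.06 and 0.92 in sub, low and high) were the same by construction while adjusted p was 0.143 to 0.997; the F adjusted p without the trend was 0.993 for Malat1 and 0.807 for Neat1.

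On the 10 libraries with recovered reads, DESeq2 gave Malat1 0.37 in sub and 0.30 in low and Neat1 0.76, 1.05 and 0.79 in sub, low and high, with adjusted p of 0.171 to 0.926 and F adjusted p of 1 for Malat1 and 0.599 for Neat1. limma on those 10, added after seeing the data, gave Malat1 0.37 and 0.29 and Neat1 0.78 in sub and 0.81 in high, F adjusted p 0.374 and 0.0687, with these calls lost, and kept the call of Neat1 in low. edgeR called both RNAs in sub, low and high, with Malat1 at 0.31 in high (adjusted p = 3.35e-24). Gas5 in high against neg was -0.03 in edgeR, -0.13 in DESeq2 and -0.08 in limma on 10, and Snhg1 in high against sub was -1.55, -1.68 and -0.66, turned from 2.20.

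Leaving out each library gave 0.24 to 0.42 for Malat1 in sub, 0.19 to 0.37 in low (F adjusted p 0.0159 to 0.107), 0.54 to 0.91 for Neat1 in sub, -2.83 to 0.49 for Gas5 in sub, -0.96 to 2.36 for Gas5 and -0.24 to 0.09 for Kcnq1ot1 in low against sub, -2.44 to 1.31 for Snhg1 in high against low, -0.08 to 0.42 for Gas5 in high against neg and -0.35 to 2.97 in high against sub. The permutation p spanned 0.0142 to 0.158 for Malat1, 0.0158 to 0.211 for Kcnq1ot1 and 0.0209 to 0.518 for Snhg1, and that of Malat1 without mitochondrial genes, Rn45s and Lars2 was 0.0253.

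Library numbers and column-name suffixes are shared between gates, and the labels do not say what they mark. Whether they pair samples stayed undecided. Of 18 same-number pairs, 0 had a correlation of deviations above 0.1 (-0.016 to 0.027, median 0.012), beside a median of -0.004 for other pairs. Yet 10 of 12 libraries were best correlated with their own number. With a replicate block Neat1 in low against sub was 0.36 (adjusted p = 0.0266, higher in low in 3 of 3 same-number pairs), Malat1 in high against neg 0.20 (adjusted p = 0.0124), and the permutation p 0.0104 for Malat1 and 0.0885 for Kcnq1ot1; no other call of the 5 changed.

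Counts of genes called moved from 192 to 0 (2 gates alone) and 1645 (DESeq2) for sub against neg, from 757 to 203 and 1875 for low against neg and from 757 to 341 and 1845 for high against neg. For low against sub they moved from 120 to between 0 and 1499, for high against sub from 159 to between 8 and 1506, and for high against low from 0 to between 0 and 678, with 684 at an unadjusted p under 0.05 in limma and 74 calls by edgeR. Over the values of the 5 RNAs and their ratios, these counts of genes not included, 840 values kept their side of the threshold and direction, 65 calls were lost, 7 gained and 21 signs turned.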
